A study of Homo sapiens with 6 samples.

Results

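Nuclear RNA was compared with total-cell RNA of the same kind of culture, forebrain cells made from H9, a human embryonic stem cell line, and collected at day 26. The comparison uses 4 of the 6 libraries of the series, 2 from nuclei and 2 from total cells, chosen by the fraction named in their labels. The 2 cytoplasmic libraries entered the fits only to estimate the spread, and their ratios to total are given beside those of the nucleus. All 6 libraries were labelled wild type and untreated, and one label calls the cells neurons while another calls them neuron progenitors. The labels do not say whether replicates were separate cultures, so the p-values rest on the spread of these libraries alone, and that spread may be technical. How the nuclei were isolated is not given in the sources used here.

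Most RNAs are made, capped, spliced and polyadenylated in the nucleus and then exported, while small guide RNAs stay in the nucleolus or in Cajal bodies, where they direct chemical modification of ribosomal and spliceosomal RNA. Some long noncoding RNAs (lncRNAs), such as MALAT1 and NEAT1, are known to be kept in nuclear bodies, and RNA made in mitochondria stays there. Circular RNAs (circRNAs) are exon rings closed by back-splicing and have no poly(A) tail. The title of the series names the export of adenosine-rich circRNAs by the poly(A)-binding protein PABPC1 as its subject.

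Genes were given in FPKM (fragments per kilobase of gene, scaled to library size) and circRNAs in FPB, a signal scaled to library size. Features were tested where the mean of the 4 libraries reached 1 FPKM in the mRNA sheet, which lists genes of all types, 0.3 FPKM in the lncRNA sheet and 0.37 FPB in the circRNA sheet. These limits left 13781 of 59609 genes, 5015 of 17936 lncRNAs and 889 of 31559 circRNAs. Only 30 genes, 7 lncRNAs and 7 circRNAs reached the limit in the nucleus but not in the total libraries. By contrast, 4773 genes, 2350 lncRNAs and 487 circRNAs reached it in the total libraries alone, so they had to be lower in the nucleus. KCNQ1OT1, GRIA2, GAD1 and the PAK3 ring, named below, are of this kind.

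By estimate, nuclear libraries held fewer fragments in genes for their size. From the steps of the FPKM values, which gave whole fragments for only 45.2% to 50.8% of genes without exonic overlap, genes of the mRNA sheet held 27895871 and 27986180 fragments for the nuclear libraries, against 20754197 and 25279059 for the total libraries. That was 23.2% and 25.04% of the denominator of FPKM for the nuclear libraries, against 59.5% and 67.6% for the total libraries. Back-splice reads numbered 13338 and 15395 for the nuclear libraries, against 26114 and 33318 for the total libraries. Only 1 of 12 glial markers (SLC1A3), 3 of 9 pluripotency markers (LIN28A, DNMT3B and DPPA4) and 0 of 14 hindbrain and spinal cord markers passed the filter. Of 11 mesenchymal and vascular markers, 6 passed. In bulk RNA, fewer cells of a type and less RNA per cell cannot be told apart.

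As deposited, most features were lower in the nucleus. In the mRNA sheet 12854 of 13781 genes fell and 203 rose (limma, adjusted p below 0.05), which is 93.3% and 1.47% of those tested. The median log2 ratio of nucleus to total was -1.07, on the scale of log2(FPKM + 1), which understates the change of low genes. In the lncRNA sheet 4508 of 5015 fell and 35 rose (89.9% and 0.698%), with a median of -0.75, and the 35 became 22 without nucleus replicate 2. Among circRNAs 595 of 889 fell and 0 rose (66.9% and 0%), with a median log2 ratio of -1.46. No circRNA rose at an unadjusted p below 0.05 in limma either (0), and edgeR on recovered reads called none higher (0), but limma called 4 higher at adjusted p below 0.05 without total replicate 1 and 4 without total replicate 2. The 595 lower became 309 and 295 without these libraries, and 212 with each ring's own spread. FPKM and FPB are relative to each library, and the fall stood beside the smaller share of nuclear fragments in genes, whose part in it was not tested.

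The libraries were therefore also scaled to one median within each sheet, and "relative ratio" below means the log2 ratio of nucleus to total after that scaling. On this scale 4861 genes of the mRNA sheet were higher and 5270 lower (35.3% and 38.2%). In the lncRNA sheet 1311 were higher and 1800 lower (26.1% and 35.9%), and among circRNAs 10 were higher and 29 lower (1.12% and 3.26%). Of 10253 protein-coding genes, 3839 were higher and 3839 lower (37.4% each). The medians of the mRNA, lncRNA and circRNA sheets were then -0.02, -0.07 and -0.21. Counts for the gene lists below are read against these shares. Statements below that groups did not overlap describe single genes or rings. The share of all features without overlap was not counted, but 93.3% of genes and 89.9% of lncRNAs were called lower as deposited. Features named by rule as the largest rises or falls had no overlap because the rule required it.

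**Figure D1:**
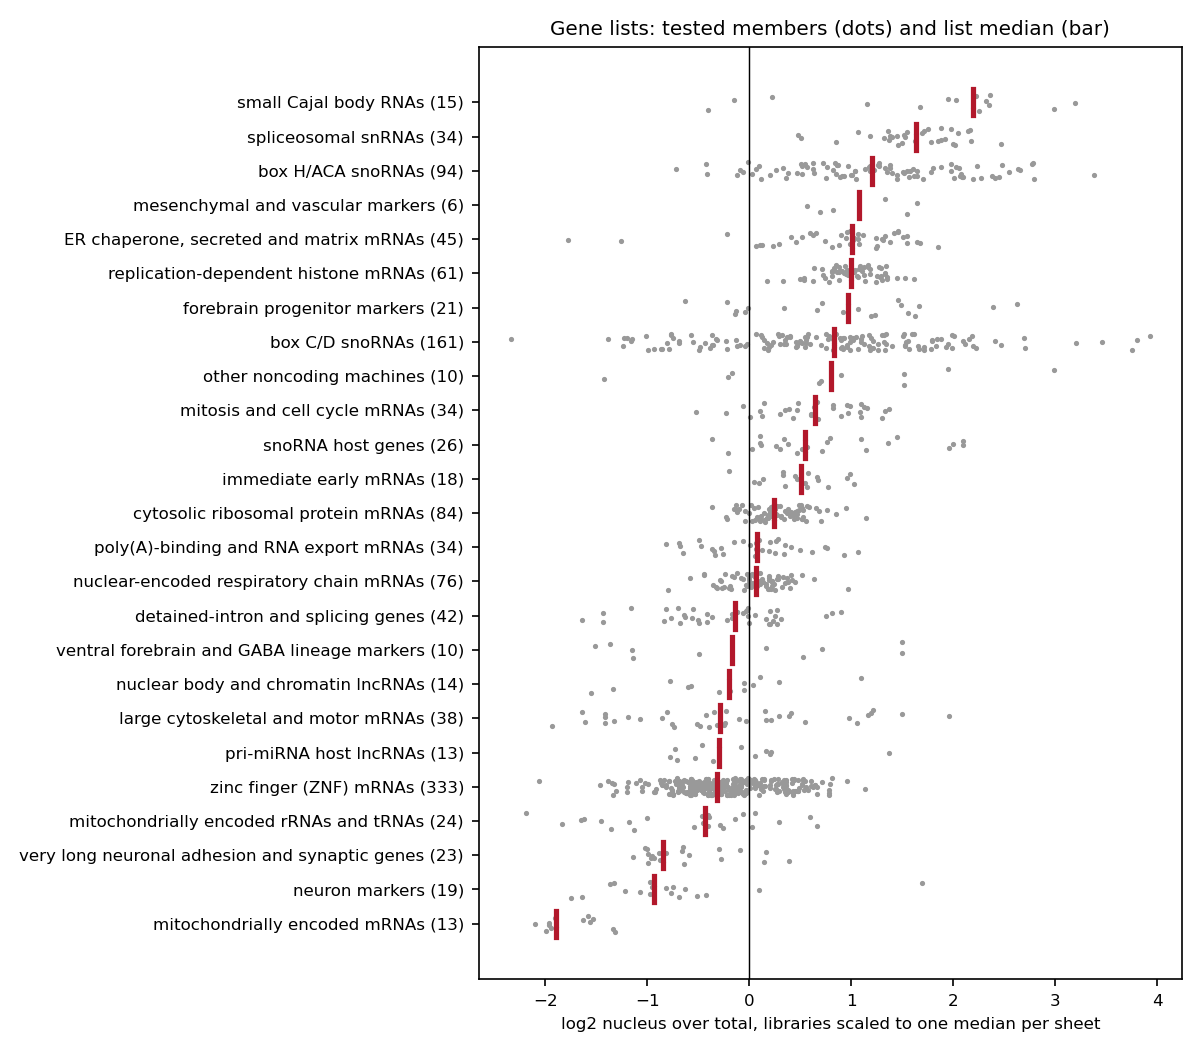
Relative log2 ratio of nucleus to total (x axis, libraries scaled to one median per sheet) for 25 gene lists with at least 5 tested members, whose number follows each name. Each dot is one gene and each red bar the list's median, from 2.19 for small Cajal body RNAs down to -1.89 for mitochondrially encoded mRNAs.

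Small guide RNAs of the nucleolus and Cajal bodies were among the highest in the nucleus. The sequence of one of each kind follows, because their levels are given next. Capitals mark the conserved box of the kind in SNORA48 and SNORD10, and the last ACA in SCARNA22. SNORA48 is a box H/ACA snoRNA, a kind that guides the change of uridine to pseudouridine and carries ACA close to its 3′ end. SNORD10 is a box C/D snoRNA, a kind that guides 2′-O-methylation and carries the D box CTGA near its 3′ end. SCARNA22 is a small Cajal body RNA and ends with ACA directly after another ACA. The earlier ACA, not in capitals, has 3 bases after it, as the marked ACA of SNORA48 has. The sequences are from GENCODE v29 transcripts (hg38), written 5′ to 3′ with T for U.
SNORA48: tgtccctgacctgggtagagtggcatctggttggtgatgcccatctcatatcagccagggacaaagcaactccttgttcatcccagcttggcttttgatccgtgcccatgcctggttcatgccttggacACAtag
SNORD10: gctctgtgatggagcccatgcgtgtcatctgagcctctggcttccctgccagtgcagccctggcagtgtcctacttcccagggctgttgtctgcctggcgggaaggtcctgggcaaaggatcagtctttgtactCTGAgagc
SCARNA22: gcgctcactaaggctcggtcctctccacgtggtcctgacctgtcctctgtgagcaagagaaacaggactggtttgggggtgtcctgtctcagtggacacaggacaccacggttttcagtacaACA
SNORA48 (chr17:7574713-7574847) and SNORD10 (chr17:7576811-7576952) lie within EIF4A1, which encodes a translation initiation helicase. SCARNA22 (chr4:1974636-1974760) lies in NSD2, a histone methyltransferase gene. All 3 are on the plus strand.

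SNORA48 had 64.8 and 45.3 FPKM in the nucleus and 13 and 13.8 FPKM in total RNA. SNORD10 had 40.9 and 27.8 FPKM in the nucleus and 7.93 and 10.4 FPKM in total RNA. Neither gene's groups overlapped, and both rose even as deposited (log2 ratio 1.94 for SNORA48 and 1.79 for SNORD10). Their host EIF4A1 fell as deposited, with 14.6 and 17.8 FPKM in the nucleus against 30.9 and 37.8 FPKM in total RNA. Both snoRNAs also overlap exons annotated to EIF4A1, so reads of the snoRNAs and the mRNA cannot be fully told apart. SCARNA22 had 32 and 21.8 FPKM in the nucleus against 18.6 and 12.4 FPKM in total RNA, with no overlap. NSD2 had 2.82 and 3.31 FPKM in the nucleus against 7.81 and 9.07 FPKM in total RNA.

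Small Cajal body RNAs, which guide modification of spliceosomal RNAs, were higher in 12 and lower in 1 of 15 on the relative scale, and 10 rose even as deposited. Their median relative ratio was 2.19, and that of cytoplasm to the same total libraries was -1.07. SCARNA2 had 259 and 223 FPKM in the nucleus against 68.3 and 79.1 FPKM in total RNA, a relative ratio of 3.19 ± 0.18 (limma SE, adjusted p = 4.7e-05). SCARNA10 had 747 and 894 FPKM in the nucleus against 451 and 526 FPKM in total RNA. Groups did not overlap for either gene. Of the estimated fragments in genes, those of the small Cajal body RNA type made up 0.207% and 0.196% in the nucleus against 0.0474% and 0.0458% in total RNA.

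Box H/ACA snoRNAs were higher in 74 and lower in 2 of 94, with a median of 1.2 in the nucleus and -0.50 in the cytoplasm. SNORA73A had the highest level of them, with 156 and 95.1 FPKM in the nucleus against 46.3 and 50.8 FPKM in total RNA. Box C/D snoRNAs were higher in 97 and lower in 21 of 161, with a median of 0.83 in the nucleus and -0.57 in the cytoplasm. SNORD3A, a gene of the U3 snoRNA that helps to cut precursor ribosomal RNA, had 2086 and 2512 FPKM in the nucleus and 295 and 788 FPKM in total RNA. The total libraries differed from each other more than the nuclear ones did but lay below both. Genes of the U3 family are near-identical copies, so the split of reads among them is uncertain. SNORD108 went the other way, with 8.43 and 8.44 FPKM in the nucleus against 50.9 and 63.6 FPKM in total RNA and a relative ratio of -1.20.

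Small RNAs lying in introns mostly had higher relative ratios than the genes that carry them. For 116 such RNAs in 70 tested host genes the median relative ratio was 0.82, against -0.02 for the hosts, and 90 stood above their host and 26 below. All 11 small Cajal body RNAs stood above, with 33 of 37 box H/ACA and 46 of 68 box C/D snoRNAs. The 116 are not independent, since SNHG14 alone carries 29 of the box C/D snoRNAs. SCARNA5 and SCARNA6 share the host ATG16L1, an autophagy gene. SCARNA5 had 302 and 338 FPKM in the nucleus against 158 and 236 FPKM in total RNA, and SCARNA6 had 33.7 and 35.6 FPKM against 16.2 and 21.2 FPKM. ATG16L1 itself had 1.13 and 1.26 FPKM in the nucleus against 3.95 and 4.91 FPKM in total RNA. Both RNAs were higher and their host lower, as deposited and on the relative scale.

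**Figure D2:**
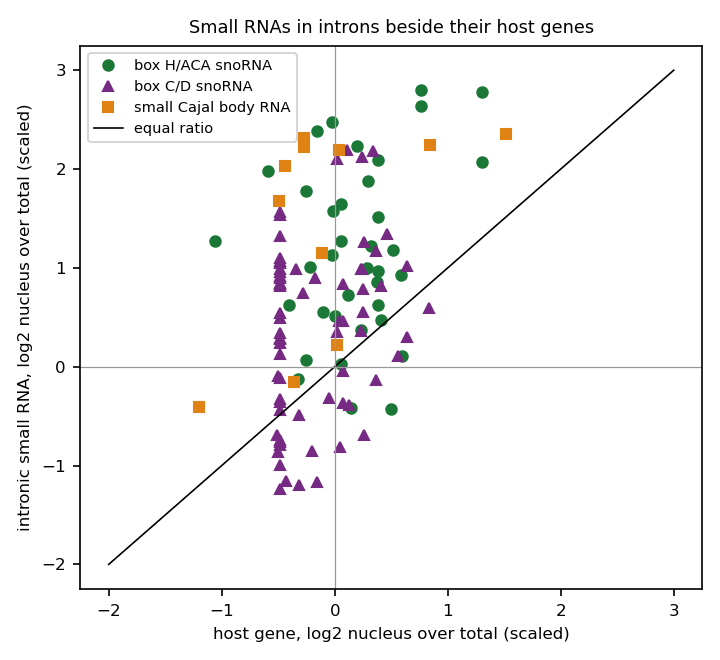
Relative log2 ratio of nucleus to total for small RNAs in introns (y axis) against that of their host genes (x axis). Each point is one of 116 small RNAs, with the kind given by colour and shape, and 90 lie above the line of equal ratio.

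Other noncoding machines of the nucleus did not all follow the guide RNAs. Listed spliceosomal snRNAs were higher in 31 and lower in 0 of 34 on the relative scale, with a median of 1.63 in the nucleus, but it was 1.45 in the cytoplasm. Over all 139 tested genes annotated as snRNA, 39 were higher and 81 lower, with a median of -0.81 in the nucleus. RNU4-2, a copy of U4 snRNA, had 157 and 97.9 FPKM in the nucleus against 101 and 92.5 FPKM in total RNA, and the groups overlapped as deposited. RNU12, the U12 snRNA of the minor spliceosome, had 29 and 26.7 FPKM in the nucleus and 82.6 and 92.6 FPKM in the cytoplasm, against 23.5 and 23.5 FPKM in total RNA. Copies of one snRNA share reads, so single members are uncertain. RMRP, the RNA of the RNase MRP enzyme, had 13516 and 11252 FPKM in the nucleus against 4028 and 4849 FPKM in total RNA in the lncRNA sheet (relative ratio 3.24 ± 0.22, limma adjusted p = 0.00015). TERC, the RNA of telomerase, had 10.04 and 11.1 FPKM in the nucleus against 5.36 and 5.73 FPKM in total RNA. Both rose, whereas RPPH1, the RNA of RNase P, fell as deposited to 1193 and 1215 FPKM in the nucleus, against 3485 and 4457 FPKM in total RNA. RN7SK, which restrains transcription elongation, had 15599.6 and 14236 FPKM in the nucleus against 26484 and 25431 FPKM in total RNA. Its nuclear level was below total as deposited but above it on the relative scale.

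Mitochondrially encoded mRNAs had the lowest median of the 25 lists. All 13 were lower both as deposited and on the relative scale, with a median relative ratio of -1.89 in the nucleus and 0.05 in the cytoplasm. MT-CO2, part of the enzyme that passes electrons to oxygen, had 146 and 154 FPKM in the nucleus against 1636 and 1656 FPKM in total RNA (log2 ratio -3.45, relative ratio -1.95 ± 0.13, limma adjusted p = 8.2e-05). Set against the sum of protein-coding FPKM in each library, which leaves out these 13 mRNAs, they came to 3.0% and 2.80% in the nucleus. In total RNA they came to 11.3% and 9.93%. Percentages of protein-coding FPKM given below use the same sum. MT-RNR2, the large mitochondrial ribosomal RNA, had 3857 and 3654 FPKM in the nucleus and 23304 and 23418 FPKM in total RNA. Of 24 mitochondrial ribosomal and transfer RNAs, 14 were lower and 2 higher on the relative scale.

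lncRNAs known from nuclear bodies and chromatin were not higher as a group in the nuclear libraries. MALAT1, the lncRNA of nuclear speckles, had 57.5 and 70.1 FPKM in the nucleus against 568 and 712 FPKM in total RNA, a log2 ratio of -3.30 as deposited and a relative ratio of -1.55 ± 0.09 (limma adjusted p = 0.00011). The cytoplasm had 31.5 and 31.6 FPKM of MALAT1, so both fractions lay far below the total. MIAT, another lncRNA of nuclear foci, had 1.55 and 1.70 FPKM in the nucleus and 15 and 18.7 FPKM in total RNA. NEAT1, the scaffold of paraspeckles, had 0.401 and 0.508 FPKM in the nucleus against 1.84 and 2.21 FPKM in total RNA (relative ratio -0.19). KCNQ1OT1, which silences an imprinted domain, had 0.0399 and 0.0507 FPKM in the nucleus against 1.05 and 1.22 FPKM in total RNA. Groups did not overlap for any of these 4 genes, in a sheet where 89.9% of lncRNAs were called lower as deposited. On the relative scale 8 of the 14 tested lncRNAs of this list were lower and 2 higher (median -0.20). The higher ones were NORAD, which binds Pumilio proteins in the cytoplasm (relative ratio 0.29), and GAS5, a host of snoRNAs (1.09).

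**Figure D3:**
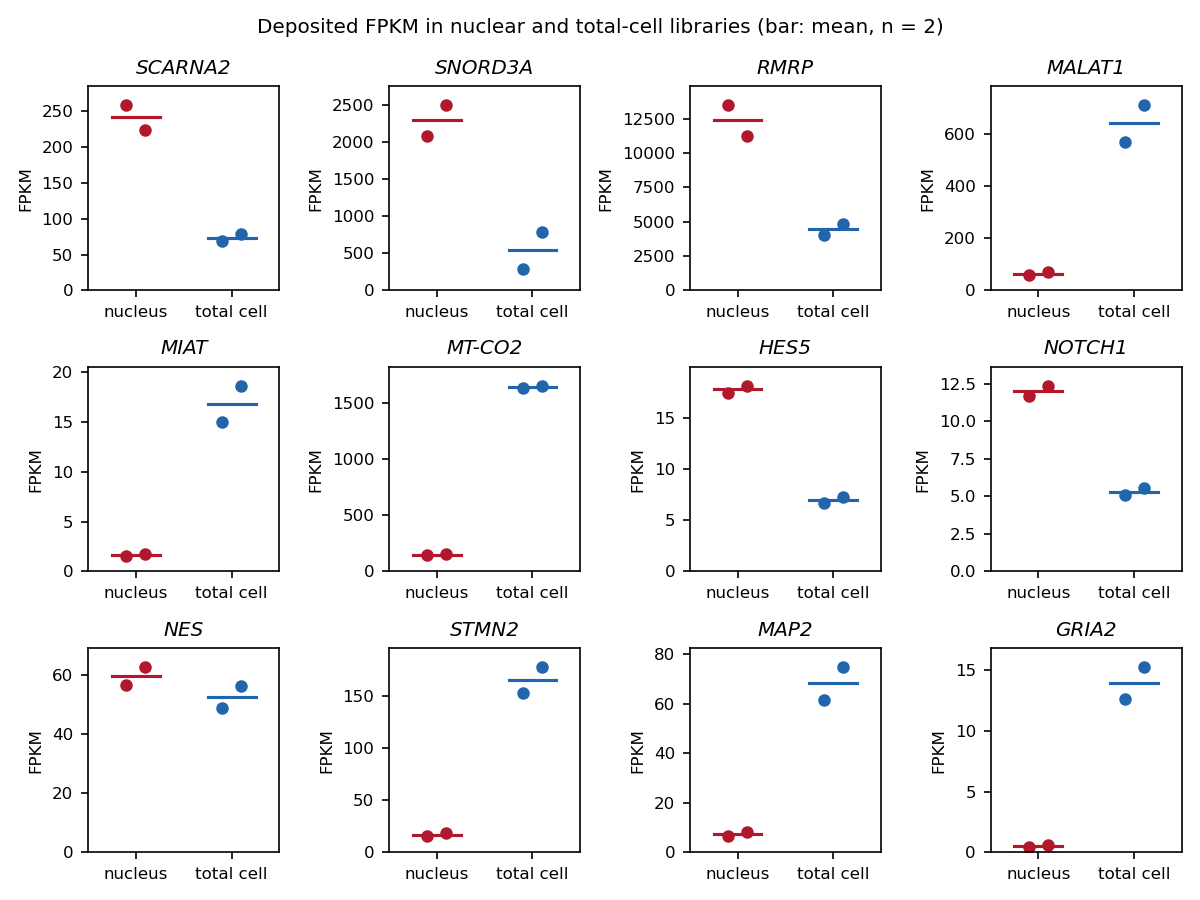
Deposited FPKM (y axis, from 0) of 12 genes in the 2 nuclear (left) and the 2 total-cell libraries (right), one dot per library with a bar at the mean. SCARNA2, SNORD3A, RMRP, HES5, NOTCH1 and NES are higher in both nuclear libraries than in either total library, and MALAT1, MIAT, MT-CO2, STMN2, MAP2 and GRIA2 are lower.

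Host lncRNAs of microRNAs were split. MIR17HG, the host of the miR-17 cluster, had 2.83 and 3.29 FPKM in the nucleus against 2.53 and 3.25 FPKM in total RNA, so the groups overlapped as deposited, and it was higher on the relative scale (1.37 ± 0.08, limma adjusted p = 9.5e-05). MIR124-2HG, a host of the neuronal miR-124, had 4.25 and 5.21 FPKM in the nucleus against 19.1 and 23 FPKM in total RNA (relative ratio -0.36, or 0.15 where only lncRNAs without exonic overlap set the scale). MIR302CHG, the host of the stem cell miR-302 cluster, had 0.816 and 1.11 FPKM in the nucleus against 5.60 and 8.42 FPKM in total RNA. Of 13 such hosts, 3 were higher and 7 lower on the relative scale. Host genes of snoRNAs were higher in 20 and lower in 2 of 26 (median 0.54, and 0.51 in the cytoplasm). Some snoRNAs overlap annotated exons of their host, as at SNHG1 and SNHG6, so reads of host and snoRNA cannot be fully told apart there. SNHG3 rose as deposited, to 9.38 and 6.69 FPKM in the nucleus against 4.60 and 5.17 FPKM in total RNA. SNHG6 fell as deposited, to 6.16 and 6.82 FPKM in the nucleus against 14.7 and 16.2 FPKM in total RNA, and was higher on the relative scale (0.47).

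Many entries of the lncRNA sheet cannot be read as the lncRNA alone. For 1254 lncRNAs that overlap exons only of genes on the opposite strand, the median ratio of the value in the lncRNA sheet to that in the mRNA sheet was 1.9, against 1.0 for 318 without exonic overlap. Reads of overlapping genes therefore cannot be told apart there. Among the leading entries, AC007952.4 overlaps SNORD3D, AL356488.2 overlaps SCARNA2, VCAN-AS1 overlaps VCAN and AC007938.3 overlaps COPG2. Over the 1901 lncRNAs without exonic overlap, 5 rose and 1731 fell as deposited (0.263% and 91.1%, where the whole sheet had 0.698% and 89.9%).

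Neuron markers were mostly low in the nucleus relative to the sheet. On the relative scale 17 of 19 fell and 1 rose, with a median of -0.94 in the nucleus and -0.84 in the cytoplasm, against the same total libraries. STMN2, a microtubule regulator of growing axons, had 15.4 and 18.7 FPKM in the nucleus against 154 and 179 FPKM in total RNA (log2 ratio -3.21, relative ratio -1.75 ± 0.06, limma adjusted p = 2.6e-05). DCX, a microtubule protein of young neurons, had 9.76 and 12.2 FPKM in the nucleus against 72.7 and 87.5 FPKM in total RNA. GAP43, a growth cone protein, had 24.1 and 28 FPKM in the nucleus against 141 and 147 FPKM in total RNA. Groups did not overlap for any of the 3, in a sheet where 93.3% of genes were called lower as deposited. GRIA2, a glutamate receptor subunit, had the lowest relative ratio of the protein-coding genes named by rule, -2.35, with 0.474 and 0.589 FPKM in the nucleus and 12.6 and 15.3 FPKM in total RNA. TUBB3, the neuronal tubulin, did not pass the test on the relative scale (0.09), and NEUROG2, a proneural transcription factor, was the marker that rose (log2 ratio 0.74 as deposited). Summed, neuron markers made up 0.382% and 0.392% of protein-coding FPKM in the nucleus, 0.343% and 0.331% in the cytoplasm and 0.904% and 0.895% in total RNA.

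Ventral forebrain markers went both ways, with 5 higher and 5 lower of 10. GAD1, which makes the transmitter GABA, had 0.928 and 1.04 FPKM in the nucleus against 9.86 and 11.8 FPKM in total RNA. GSX2, a transcription factor of ventral progenitors, rose as deposited to 4.57 and 4.60 FPKM in the nucleus, against 3.26 and 4.07 FPKM in total RNA.

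Forebrain progenitor markers were mostly high. Of 21, 15 were higher and 3 lower on the relative scale, with a median of 0.97 in the nucleus and 0.94 in the cytoplasm. HES5, a target of Notch signalling at chr1:2528745-2530245, had 17.4 and 18.1 FPKM in the nucleus and 6.66 and 7.23 FPKM in total RNA, the largest rise among protein-coding genes named by rule (log2 ratio 1.24 as deposited, relative ratio 2.62 ± 0.08, limma adjusted p = 2.6e-05). NOTCH1, the receptor, had 11.7 and 12.4 FPKM in the nucleus against 5.06 and 5.59 FPKM in total RNA. NES, an intermediate filament of neural stem cells, had 56.7 and 62.8 FPKM in the nucleus against 48.7 and 56.4 FPKM in total RNA. Groups of NES did not overlap, but as deposited it missed the test (log2 ratio 0.18). VIM, another intermediate filament, had 233 and 251 FPKM in the nucleus against 290.5 and 308 FPKM in total RNA, and SOX11, a transcription factor also of young neurons, was lower on the relative scale (-0.22). Summed, progenitor markers made up 1.28% and 1.22% of protein-coding FPKM in the nucleus, 0.832% and 0.823% in the cytoplasm and 0.711% and 0.675% in total RNA. For neuron and progenitor markers alike, both fractions lay on one side of total, and the part that a different make-up of cells between the samples had in this was not tested.

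Cell cycle mRNAs were higher in 27 and lower in 2 of 34 (median relative ratio 0.64, and 0.75 in the cytoplasm). CDC20, an activator of the anaphase-promoting complex, had 6.64 and 7.51 FPKM in the nucleus against 6.36 and 7.28 FPKM in total RNA, so its groups overlapped as deposited. PCNA, the sliding clamp of replication, had 8.97 and 10.7 FPKM in the nucleus against 13.6 and 16.8 FPKM in total RNA. Replication-dependent histone mRNAs, which have no poly(A) tail, were higher in 60 and lower in 0 of 61, with a median of 1.0 in the nucleus and 2.38 in the cytoplasm. H4C11, a histone H4 gene, had 266 and 230.0 FPKM in the nucleus against 419 and 382 FPKM in total RNA. Copies of each histone are near-identical, so reads may be split among them. Immediate early mRNAs were higher in 14 and lower in 1 of 18 (median 0.51), among them FOS, a transcription factor gene, with 4.29 and 4.54 FPKM in the nucleus against 8.46 and 8.86 FPKM in total RNA (relative ratio 0.47).

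mRNAs of endoplasmic reticulum (ER) chaperones, secreted and matrix proteins, which are translated at the ER, were higher in 39 and lower in 3 of 45 on the relative scale. Their median was 1.01 in the nucleus and -0.07 in the cytoplasm. HSPA5, the ER chaperone BiP, had 40.7 and 49.9 FPKM in the nucleus against 54.4 and 66.4 FPKM in total RNA (relative ratio 1.07 ± 0.06, limma adjusted p = 4.3e-05). HSP90B1, another ER chaperone, had 31.2 and 39.3 FPKM in the nucleus against 66.6 and 83.5 FPKM in total RNA. Both were lower as deposited and higher on the relative scale. COL3A1, a fibrillar collagen, had 24.3 and 28.9 FPKM in the nucleus against 22.2 and 27.4 FPKM in total RNA, and COL2A1 rose as deposited, to 13.2 and 14.9 FPKM in the nucleus against 7.28 and 8.75 FPKM in total RNA. The lower ones were VCAN, a matrix proteoglycan, with 7.77 and 9.39 FPKM in the nucleus against 79.8 and 95.1 FPKM in total RNA, RELN (relative ratio -1.26) and LRP6 (-0.22). Mesenchymal and vascular markers, whose list also holds COL3A1, were higher in 6 of 6 and made up 0.130% and 0.133% of protein-coding FPKM in the nucleus against 0.0532% and 0.0550% in total RNA; their part in the matrix genes was not tested.

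Cytosolic ribosomal protein mRNAs were higher in 51 and lower in 5 of 84, with a median relative ratio of 0.25 in the nucleus and 1.47 in the cytoplasm. RPS2 had 92.1 and 99 FPKM in the nucleus and 628 and 579 FPKM in the cytoplasm, against 208 and 219 FPKM in total RNA. Nuclear-encoded respiratory chain mRNAs were higher in 23 and lower in 14 of 76 (median 0.07). Genes of poly(A) binding and RNA export were higher in 14 and lower in 12 of 34 (median 0.07). PABPC1, the poly(A)-binding protein of the series' title, had 21 and 24.1 FPKM in the nucleus against 56.7 and 66.5 FPKM in total RNA and missed the test on the relative scale (0.06 ± 0.05, limma adjusted p = 0.37). Genes of splicing and of detained introns, some of whose messages are known to wait unspliced in the nucleus, were higher in 12 and lower in 20 of 42 (median -0.14). CLK1, a splicing kinase, had 3.04 and 3.60 FPKM in the nucleus against 14.6 and 17.9 FPKM in total RNA. These FPKM do not separate spliced from unspliced messages.

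Long neuronal genes were low in the nucleus. Of 23 very long adhesion and synaptic genes, 19 were lower and 3 higher on the relative scale (median -0.84, and -1.04 in the cytoplasm). ROBO1, an axon guidance receptor, had 3.46 and 3.93 FPKM in the nucleus against 18.1 and 21.3 FPKM in total RNA. DCC, the netrin receptor, had 1.47 and 1.83 FPKM in the nucleus against 9.67 and 11.3 FPKM in total RNA. Large cytoskeletal and motor mRNAs were lower in 22 and higher in 14 of 38 (median -0.28, and -1.45 in the cytoplasm). MAP2, a dendritic microtubule protein, had 6.52 and 8.17 FPKM in the nucleus against 61.6 and 75.1 FPKM in total RNA. FLNA, the actin cross-linker filamin A, rose as deposited to 61.1 and 68.8 FPKM in the nucleus, against 44.4 and 48 FPKM in total RNA. Zinc finger mRNAs were lower in 210 and higher in 63 of 333 (median -0.31). ZNF91, a repressor of retrotransposons, had 1.19 and 1.52 FPKM in the nucleus against 18.8 and 23.1 FPKM in total RNA.

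GC content and gene size ran with the relative ratio. Over 10218 nuclear-encoded protein-coding genes, Spearman's rho with the GC content of the exons was 0.61 for nucleus over total and 0.45 for cytoplasm over total, which share the total libraries. It is a correlation across genes, which are not independent replicates. From the lowest to the highest quartile of GC the median relative ratio was -0.36, -0.14, 0.16 and 0.42. In the lowest quartile 172 genes were higher and 1812 lower, and in the highest 1841 were higher and 236 lower. With genomic span rho was -0.43 (cytoplasm -0.52), and the quartile medians were 0.31, 0.06, -0.09 and -0.28 from the shortest to the longest. With exonic length rho was -0.31 (cytoplasm -0.54). Over the 5014 genes without exonic overlap, rho with GC was 0.60. GC, span and the gene lists were not separated from each other.

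**Figure D4:**
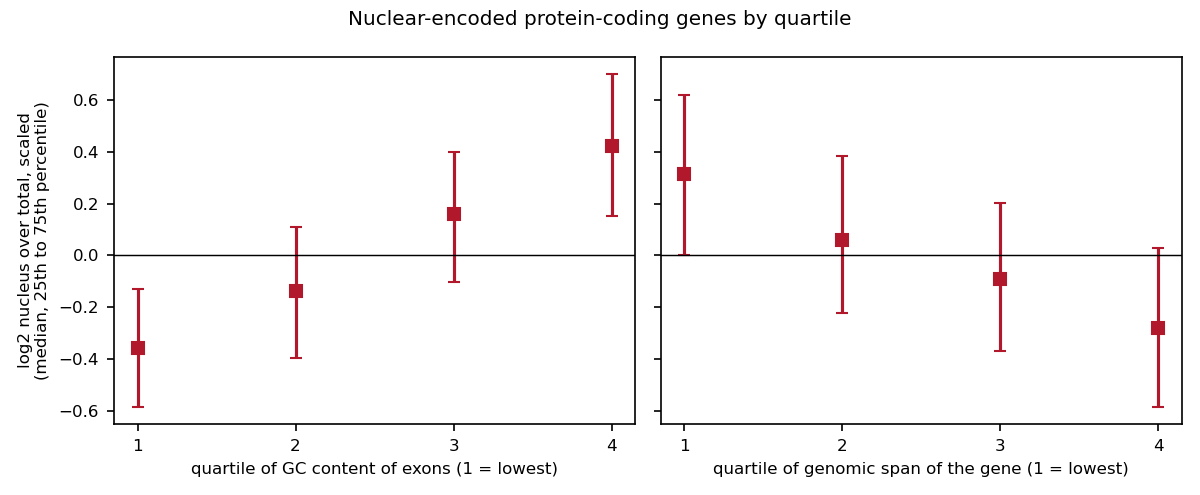
Relative log2 ratio of nucleus to total (y axis) for 10218 nuclear-encoded protein-coding genes in quartiles of exon GC content (left) and of genomic span (right). Squares are medians and bars run from the 25th to the 75th percentile, with medians between -0.36 in the lowest and 0.42 in the highest GC quartile, and between 0.31 in the shortest and -0.28 in the longest.

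The 8 most abundant circRNAs were all lower in the nucleus as deposited, where 66.9% of all tested rings were called lower and 0% higher. They were ranked by the mean of the nuclear and total libraries, which leans on the total libraries because most rings were higher there. RMST (chr12:97492461-97561047), from a lncRNA gene of neurogenesis, had 19.2 and 20.8 FPB in the nucleus, from 233 and 306 reads, against 74.3 and 71.2 FPB in total RNA, from 603 and 723 reads. Its relative ratio was -0.32 ± 0.10 and missed the test (limma adjusted p = 0.094). CDR1-AS, a ring known for its many miR-7 sites, had 5.03 and 5.83 FPB in the nucleus and 28.2 and 30.05 FPB in total RNA (relative ratio -0.87 ± 0.15, limma adjusted p = 0.014). SMARCA5, from a chromatin remodeller gene, had 5.85 and 6.65 FPB in the nucleus against 19.8 and 21.6 FPB in total RNA and missed the test on the relative scale (-0.18).

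Few rings stood apart from the shift of the whole sheet, 10 higher and 29 lower. A count of 0, taken as up to 3 reads, allows 0.247 and 0.203 FPB for the nuclear libraries and 0.369 and 0.296 FPB for the total libraries, from counting error alone. FAT1, from an atypical cadherin gene, was higher on the relative scale, with 5.77 and 5.02 FPB in the nucleus against 5.17 and 5.42 FPB in total RNA (1.53 ± 0.17, limma adjusted p = 0.00396). CAMSAP1, from a gene for a microtubule minus-end protein, had 11 and 10.9 FPB in the nucleus against 15.3 and 16.3 FPB in total RNA (1.01). SMO, from the Hedgehog signal transducer gene, had 2.47 and 2.98 FPB in the nucleus against 3.82 and 3.15 FPB in total RNA (1.15). Among the lower rings, AFF2 had 1.48 and 1.15 FPB in the nucleus against 11.5 and 14.2 FPB in total RNA (-1.69). BPTF, from a chromatin remodeller gene, had 0.659 and 0.746 FPB in the nucleus against 7.88 and 7.09 FPB in total RNA. PAK3, from a kinase gene, had 0 and 0.271 FPB in the nucleus, from 0 and 4 reads, against 3.33 and 4.63 FPB in total RNA, from 27 and 47 reads. The counts moved with single libraries, to 15 higher and 82 lower without nucleus replicate 1, 34 and 131 without nucleus replicate 2, 1 and 10 without total replicate 1, and 1 and 5 without total replicate 2, and with each ring's own spread to 0 and 0.

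To show what the called rings look like, 5 of the most abundant with enough coding sequence, 2 lower and 3 higher, are given by the 100 coding bases richest in A, from the annotated transcript (GENCODE v29, hg38), 5′ to 3′ on the sense strand. Runs of 3 or more A are in capitals. All annotated exons between the back-splice ends were kept, which the reads do not show. MAN1A2 and RIMS1 were lower in the nucleus on the relative scale, and CAMSAP1, CDYL and FAT1 higher.
MAN1A2: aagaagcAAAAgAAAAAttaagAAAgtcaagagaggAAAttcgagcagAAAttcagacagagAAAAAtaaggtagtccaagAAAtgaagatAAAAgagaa
RIMS1: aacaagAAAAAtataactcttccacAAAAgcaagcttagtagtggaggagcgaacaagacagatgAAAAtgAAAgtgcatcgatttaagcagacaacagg
CAMSAP1: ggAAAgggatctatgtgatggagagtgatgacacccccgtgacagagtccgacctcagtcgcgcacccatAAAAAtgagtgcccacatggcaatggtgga
CDYL: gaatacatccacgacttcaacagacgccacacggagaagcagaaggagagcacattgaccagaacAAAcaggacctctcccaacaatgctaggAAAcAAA
FAT1: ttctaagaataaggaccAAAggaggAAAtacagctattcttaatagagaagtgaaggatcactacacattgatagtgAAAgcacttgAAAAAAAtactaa
Over the whole ring A made up 37.8% in MAN1A2 (chr1:117402186-117420649, plus strand) and 33.3% in RIMS1 (chr6:72295937-72333835, plus strand). It made up 24% in CAMSAP1 (chr9:135881633-135883078, minus strand), 30.4% in CDYL (chr6:4891713-4892379, plus strand) and 29.2% in FAT1 (chr4:186706563-186709845, minus strand). In the 100 bases shown it was 57% in MAN1A2 and 46% in RIMS1, against 29% in CAMSAP1, 42% in CDYL and 46% in FAT1.

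MAN1A2, whose gene encodes a mannosidase of the secretory pathway, had 6.51 and 3.66 FPB in the nucleus against 26.7 and 27.4 FPB in total RNA (relative ratio -0.92, limma adjusted p = 0.042). RIMS1, from a presynaptic active zone gene, had 4.70 and 4.14 FPB in the nucleus against 25.6 and 22.3 FPB in total RNA (-0.88). Groups did not overlap for either ring, and the choice of rings for display required no overlap on the relative scale. CDYL, from a chromodomain gene, had 9.39 and 6.31 FPB in the nucleus against 14.3 and 10.05 FPB in total RNA (0.89, limma adjusted p = 0.0497), just inside the threshold.

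Rings with more A had lower relative ratios. Over 869 tested rings with a reconstructed sequence, the median relative ratio was 0.09, -0.16, -0.38 and -0.57 from the lowest to the highest quartile of A content, and Spearman's rho was -0.33 across rings. Called lower rings numbered 1, 4, 8 and 14 in these quartiles and called higher ones 6, 3, 1 and 0. Some of the lower ones, such as LINS1 and PAK3, passed the filter through the total libraries alone, as 487 of all 889 tested rings did. With each ring's own spread none was called (0 and 0), so these counts add little to the medians. For the 251 rings with a mean of at least 1 FPB, the medians were 0.18, -0.02, -0.41 and -0.59 and rho was -0.50. For cytoplasm over total, with the same total libraries, rho over the 869 rings was -0.17 and the medians were 0.07, 0.00, -0.08 and -0.26. The ratio of a ring also ran with that of its host gene (rho 0.38 over 823 rings), and A content with the host's ratio (rho -0.37 over 808). Among rings whose host was below the median of hosts, the quartile medians were -0.32, -0.42, -0.60 and -0.62. Among those whose host was above it, they were 0.24, -0.04, -0.18 and -0.24. The quartiles held 51, 106, 108 and 136 rings below it and 153, 94, 97 and 63 above it. For cytoplasm over total the medians were -0.40, -0.17, -0.23 and -0.37 below it and 0.15, 0.12, 0.04 and -0.06 above it. The host's ratio still varied within each group, so A content and the host's ratio were not separated. With the genomic span of the ring rho was -0.23 and with exon number -0.22. A trend with base composition was not limited to rings, since rho with exon GC was 0.61 over 10218 protein-coding genes. Whether A content of rings ran with the ratio apart from that trend was not tested.

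**Figure D5:**
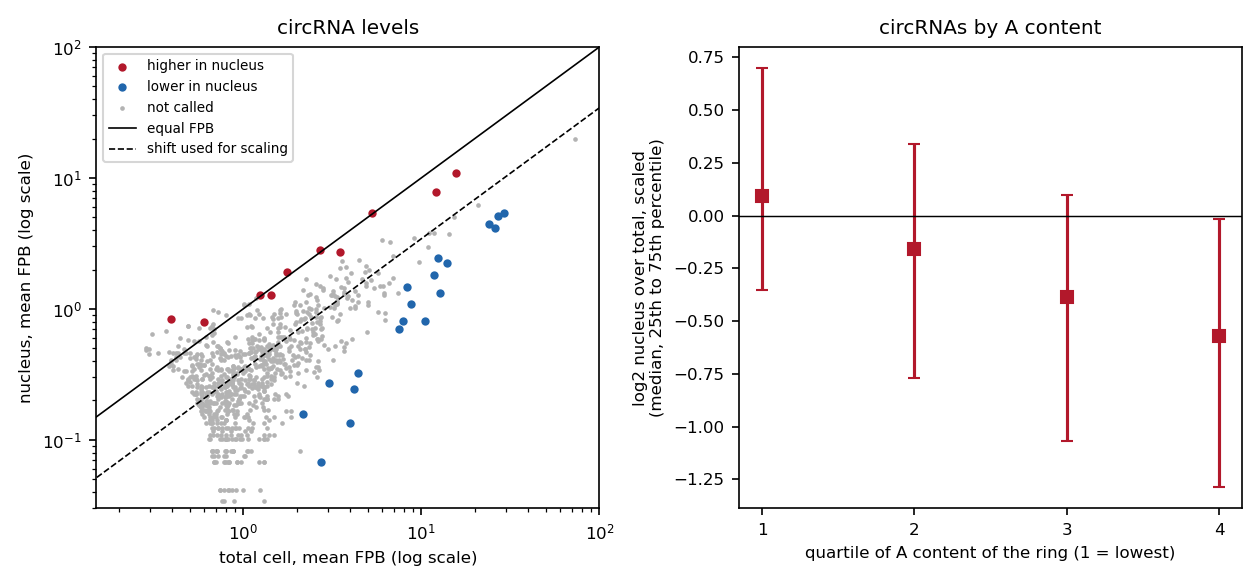
Left, mean FPB of 860 tested circRNAs in the nucleus (y axis) against total RNA (x axis), both on log scales, without the 29 rings at 0 in both nuclear libraries. The dashed line is the shift used for scaling, and the coloured rings passed the test on the relative scale. Right, relative log2 ratio of 869 rings by quartile of A content, as median and 25th to 75th percentile, with medians from 0.09 down to -0.57.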

How the data were processed

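Total-cell, cytoplasmic and nuclear RNA was depleted of ribosomal RNA and made into stranded total-RNA libraries, 2 of each, per the labels' protocols. The FPKM values of genes are as the authors deposited them, and per the submitters' processing notes the build was GRCh38/hg38 and the tools included HISAT2 2.1.0, featureCounts 2.0.1, Trimmomatic 0.39, Bowtie and SAMtools 1.9, with no roles given here. The circRNA signal, headed FPB in the deposited file, is read here as back-splice reads divided by 1 factor per library. All circRNA values were whole multiples of that step (100%, tolerance 0.05 reads). FPKM times GENCODE v29 exon length came out whole for 45.2% and 45.2% of genes without exonic overlap in the nuclear and 50.8% and 50.7% in the total libraries (tolerance 0.02), so the fragment totals and shares given are estimates, and tests on these counts served as an alternative.

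Each sheet was tested alone with limma 3.58.1 in R 4.3.3, on log2 of the value plus 1 FPKM or plus 0.123 FPB (1 read of the shallowest library), in 1 fit of all 6 libraries with an intensity trend, without the replicate number, and p-values were Benjamini-Hochberg adjusted over the sheet. For relative ratios, linear values were first divided by a factor per library, the median over features above 0 in all libraries. In the mRNA sheet these log2 factors were -1.02 and -0.80 for the nuclear and 0.49 and 0.71 for the total libraries. Fits were tested on simulated data. edgeR 4.0.16 was run on recovered counts. Positions and types are from GENCODE v29 (hg38), matched by symbol for 94.8% of mRNA sheet entries and 87.6% of lncRNA sheet entries.

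Members and gene lists were chosen with earlier results of these data known. Features named by rule were the 8 largest rises and falls per class, as deposited and relative, among called features with no overlap of groups and a mean no lower than 5 times the limit, the 4 most abundant members of each list, and the 8 most abundant circRNAs. Chosen after their values were seen were TUBB3, NEUROG2, GAD1, GSX2, VCAN, RELN, LRP6, CDC20, FOS, CLK1, DCC, RPPH1, SNORD108, SCARNA6, SCARNA22, ATG16L1, EIF4A1, NSD2, RNU12, NEAT1, KCNQ1OT1, MIR17HG and SNHG3. One of the rings chosen for display is not reported here.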

Additional observations from a re-analysis of the deposited data

How the results depend on the processing

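Alternatives on scaled values and edgeR on recovered fragments of genes were chosen after seeing the data. As deposited, counts in the nucleus moved most with scaling and filters. In the mRNA sheet the 203 higher became 108 at a filter of 5 FPKM, 135 with each gene's own spread, 62 with protein-coding genes alone and 4861 after scaling, and 166 to 254 leaving out 1 library. The 12854 lower became 3472 at that filter, 28373 with no filter and 5270 after scaling (12444 to 12957 leaving out 1 library). The median of -1.07 became -1.53 in edgeR, -1.22 at the filter of 5, -0.30 with no filter, -1.47 with a pseudocount of 0.1 and -0.021 after scaling. In the lncRNA sheet the 35 higher became 23 at a filter of 1 FPKM, 5 without exonic overlap and 1311 after scaling (22 to 39 leaving out 1 library), and the 4508 lower became 1971, 1731 and 1800, and 7963 with no filter. The median of -0.75 became -1.91 in edgeR, -1.04 at a filter of 1, -0.16 with no filter, -1.66 with a pseudocount of 0.1 and -0.065 after scaling. Scaled within lncRNAs without exonic overlap, 396 were higher and 742 lower. Among circRNAs 0 higher became 10 after scaling and 0 to 4 leaving out 1 library. The 595 lower became 229 at a filter of 1 FPB, 44 with no filter, 212 with own spread, 29 after scaling and 295 to 524 leaving out 1 library. Their median of -1.46 became -1.73 in edgeR, -1.57 at a filter of 1, 0 with no filter, -0.96 with a pseudocount of 0.5, -0.21 after scaling and -1.53 to -1.39 leaving out 1 library. On the relative scale the 10 higher rings became 0 with own spread, 23 with a pseudocount of 0.5, 5 with mRNA sheet factors and 1 to 34 leaving out 1 library, and the 29 lower became 19 with TMM factors, 0 with own spread, 46 with a pseudocount of 0.5 and 5 to 131. The rho with GC was 0.52 as deposited, and that with A content ran from -0.33 to -0.26 leaving out 1 library. The cause was not tested.

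Some named features changed sign between the deposited and the relative scale, on which they stood at 1.2 (VIM), 0.094 (TUBB3), 1.07 (HSPA5), 0.41 (HSP90B1), 0.345 (RPS2), 0.82 (PCNA), 0.81 (H4C11), 0.47 (FOS), 0.056 (PABPC1), 0.71 (RN7SK), 0.41 (EIF4A1), 0.038 (NSD2), 0.29 (NORAD), 1.09 (GAS5), 0.47 (SNHG6), 1.01 (CAMSAP1), 1.15 (SMO) and 0.89 (CDYL). MIR124-2HG turned to 0.15 on the scale of lncRNAs without exonic overlap. Leaving out 1 library turned the sign of 4 deposited ratios that had not passed the test, with ranges of -0.049 to 0.241 for COL3A1, -0.039 to 0.131 for CDC20, -0.068 to 0.199 for MIR17HG and -0.075 to 0.121 for the FAT1 ring.

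The labels do not say whether libraries with the same number came from one culture, and with 2 pairs a correlation between nucleus and total deviations (0.27 in the mRNA sheet, 0.20 in the lncRNA sheet, 0.07 in the circRNA sheet) is only a hint. With a replicate block 218 genes were higher and 12892 lower, 33 and 4532 lncRNAs, and 0 and 585 circRNAs. At this depth a ring listed at 0 could hold up to 0.247 and 0.203 FPB in the nuclear libraries. The smallest difference that could be detected between rings is not given here.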
